A study of Mus musculus with 12 samples.

Results

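Th17-polarized CD4 T cells were compared with activated but unpolarized (Th0) CD4 T cells after 3 d of culture, across every gene with a usable level. Of the 11077 genes listed, 10269 had more than 1 FPKM (sequenced fragments scaled to transcript length and to library size) in at least 4 of 8 libraries, and these were tested. The 8 libraries, 4 Th0 and 4 Th17, were all those of these conditions among the 12 RNA-seq libraries of the study, and the other 4, from induced regulatory T cells, were not used. Naïve CD4+ T cells came from spleens of C57BL/6 mice aged 8 to 10 weeks. Both groups were activated on plate-bound anti-CD3 and anti-CD28, each at 1 µg/mL. Th0 cells received nothing more. Th17 cells also received IL6 at 30 ng/ml, TGFβ1 at 5 ng/ml and neutralizing antibodies against IL4 and IFNγ at 10 µg/mL each, so that effects of the cytokines and of the antibodies cannot be told apart. RNA was taken from whole cultures, in which cells that made IL17 were not separated from those that did not.

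Th17 cells are the helper T cells that secrete IL17A and IL17F, recruit neutrophils and guard mucosal surfaces, and they take part in several autoimmune diseases. In a naïve cell activated through its T cell receptor (TCR), IL6 signals through STAT3 and TGFβ through SMAD proteins, and together they induce the transcription factors of the lineage, among them RORα, BATF, IRF4, MAF and AHR. The same cytokines and receptor signals also touch the programs of other helper cells: Th1 (T-bet, IFNγ), Th2 (GATA3, IL4), follicular helper (BCL6, CXCR5) and regulatory T cells (FOXP3).

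Each library heading began with M22, M29, M42 or M43, 1 Th0 and 1 Th17 library for each, and libraries with the same beginning are called a culture here. The first principal component held 60.7% of the variance and separated the groups, and the second held 19.7% and ran between cultures. Relative sequencing depth was read from the most common ratio to the M22 Th0 library among genes below 1 FPKM. Only 13 to 54 genes shared that ratio in a library. The depth was 0.843 to 1.05 times the median library in Th0 and 0.918 to 1.08 times in Th17. The Y chromosome gene Eif2s3y had 0 and 0.484 FPKM in the M22 libraries and 42.5 to 67.3 in the other 6, and Mid1 had 39.9 and 30.9 FPKM in the M29 libraries and 1.00 to 1.63 elsewhere. Of 10 tested T helper markers 0 rose and 1 fell, and 3 fell with the block. The one called unpaired, Cd4, fell from 283, 256, 81.3 and 209 FPKM to 87.4, 67.1, 33.8 and 84.1 in Th17 (cultures in the order M22, M29, M42, M43, here and throughout), with overlapping groups and an adjusted p of 0.0377 that was between 0.0558 and 0.1 in 7 of the 8 fits that left out a library. Cd3e, chosen after its values were seen, was 164 to 312 FPKM in Th0 and 121 to 252 in Th17. None of the NK cell, γδ T cell or erythroid and platelet markers was listed. Of 4 tested B cell markers, Cd74, the invariant chain of MHC class II, fell from 25.1, 23.2, 11.4 and 24.8 FPKM to 8.23, 3.15, 0.484 and 1.10. The myeloid marker Cd68 was at 3.98, 4.90, 3.22 and 4.12 FPKM in Th0 and at 15.9, 7.33, 5.46 and 6.97 in Th17, higher in all 4 cultures (adjusted p = 0.0550, with the block 0.0186). Cd8b1, of CD8 T cells, was at 2.52 to 6.60 FPKM in Th0 and 3.22 to 5.89 in Th17 (adjusted p = 0.753). Their part in the results was not tested. In bulk RNA, fewer cells of a type and less RNA per cell cannot be told apart.

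In the unpaired test (limma on log2(FPKM + 1), adjusted p under 0.05), 1983 genes or 19.3% of those tested were called: 1091 rose in Th17 (10.6%) and 892 fell (8.69%). With the culture as a block, 3882 were called (37.8%), 1970 up (19.2%) and 1912 down (18.6%), and all 1983 were among them with the same direction. Without the M22 Th17 library 594 genes fell in the unpaired test. The median change over all tested genes was -0.00, the median of called genes was 0.86 for those that rose and -0.80 for those that fell. A log2 fold change of 2 or more was reached by 150 raised genes, and -2 or less by 86 lowered genes. Of the raised genes 108 were at or below 1 FPKM in every Th0 library, and 72 of the lowered genes were at or below 1 FPKM in every Th17 library. Groups did not overlap at 2444 genes (23.8%), of which 1351 were higher in Th17 (13.2%) and 1093 lower (10.6%). Split into 4 equal bins by mean FPKM, the called share was 22.9% in the lowest bin and 17.4% to 18.8% in the others.

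**Figure D1:**
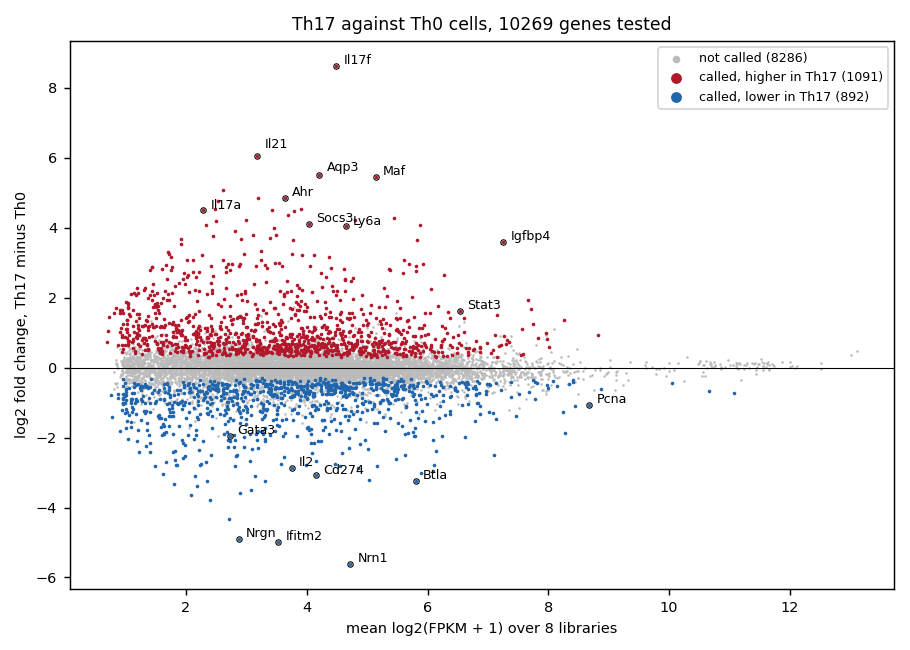
Log2 fold change (Th17 minus Th0, y axis) against the mean log2(FPKM + 1) over 8 libraries (x axis) for the 10269 tested genes; red points rose, blue points fell and grey points were not called in the unpaired limma test. Il17f lies highest, Nrn1 lowest, and the genes of highest level are mostly grey.

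Of 6 tested Th17 cytokines and chemokines, 4 rose and 0 fell, against 10.6% and 8.69% of all genes, with a median log2 fold change of 4.20. Il17a, whose product drives epithelial and stromal inflammation, was at 0.114, 0, 0 and 0 FPKM in Th0 and at 22.9, 7.27, 65.2 and 21.2 in Th17. All Th17 libraries lay above all Th0 libraries, and the exact two-sided permutation p was 0.0286, the smallest that 4 against 4 allows. In limma its log2 fold change was 4.5 ± 0.51 (SE, n = 4 per group, adjusted p = 0.000437). Il21, a cytokine that acts back on T cells and on B cells, was between 0.0401 and 0.136 FPKM in Th0 and at 65.9, 66.0, 94.1 and 70.4 in Th17, a far narrower spread than that of Il17a (log2 fold change 6.07 ± 0.13, adjusted p = 8.2e-08). Il10, an immunosuppressive cytokine, rose from 0.613, 3.71, 0.248 and 0.164 FPKM to 36.3, 26.1, 30.9 and 16.1 (3.90 ± 0.44, adjusted p = 0.000425). Tnf (13.6 to 24.7 FPKM in Th17, 19.9 to 44.3 in Th0; adjusted p = 0.157 unpaired, 0.00321 with the block) and Ccl20 (0.906 to 8.17 against 0.666 to 5.08; 0.591 and 0.517), both chosen after their values were seen, were not called in the unpaired test. Together Il17a, Il17f and Il21 made up 0.0669% to 0.160% of summed FPKM in a Th17 library.

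The promoter letters of the cytokine pair are shown because RORα, whose gene Rora rose, is known to bind the letters AGGTCA. Sequences are from RefSeq (GRCm38.p6), read 5′ to 3′ on the strand of the gene, with AGGTCA or its complement TGACCT in capitals. The windows are chr1:20784303-20784348 for Il17f and chr1:20730765-20730810 for Il17a, and both end upstream of the start.
Il17f: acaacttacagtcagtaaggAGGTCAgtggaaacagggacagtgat
Il17a: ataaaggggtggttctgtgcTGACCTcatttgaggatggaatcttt
Of the 5 cytokine list members with a promoter in the table, 3 held AGGTCA on either strand between 250 bases before and 50 after the start, against 11.6% of 7864 tested genes with a promoter. A match of letters is a description of the window and shows no binding.

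Of 17 tested transcription factors of the lineage, 12 rose and 2 fell, against 10.6% and 8.69% of all genes. The median log2 fold change of the 17 was 1.44. Maf, which directs Il10 and Il21, rose from 3.45, 13.2, 3.74 and 1.68 FPKM to 226, 266, 233 and 213 (log2 fold change 5.46 ± 0.43, adjusted p = 7.04e-05). Rora, encoding the nuclear receptor RORα, rose from 2.02 or less to between 15.9 and 30.5 FPKM (3.25 ± 0.19). Groups did not overlap for either of these. Stat3 had tight groups, 50.5 to 56.2 FPKM against 156 to 174 (1.62 ± 0.09, adjusted p = 1.12e-05). Batf (2.26 ± 0.25), an AP-1 factor needed for Th17 cells, Ikzf3 (3.09 ± 0.34), which encodes Aiolos, and Hif1a (0.90 ± 0.19) rose too. Irf4, chosen after its values were seen, was high in both groups (171 to 276 and 218 to 315 FPKM; adjusted p = 0.336, with the block 0.0304). The 2 factors that fell were Etv5, an ETS factor (-1.2 ± 0.21), and Nfkbiz, which encodes the nuclear protein IκBζ (-1.21 ± 0.18).

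**Figure D2:**
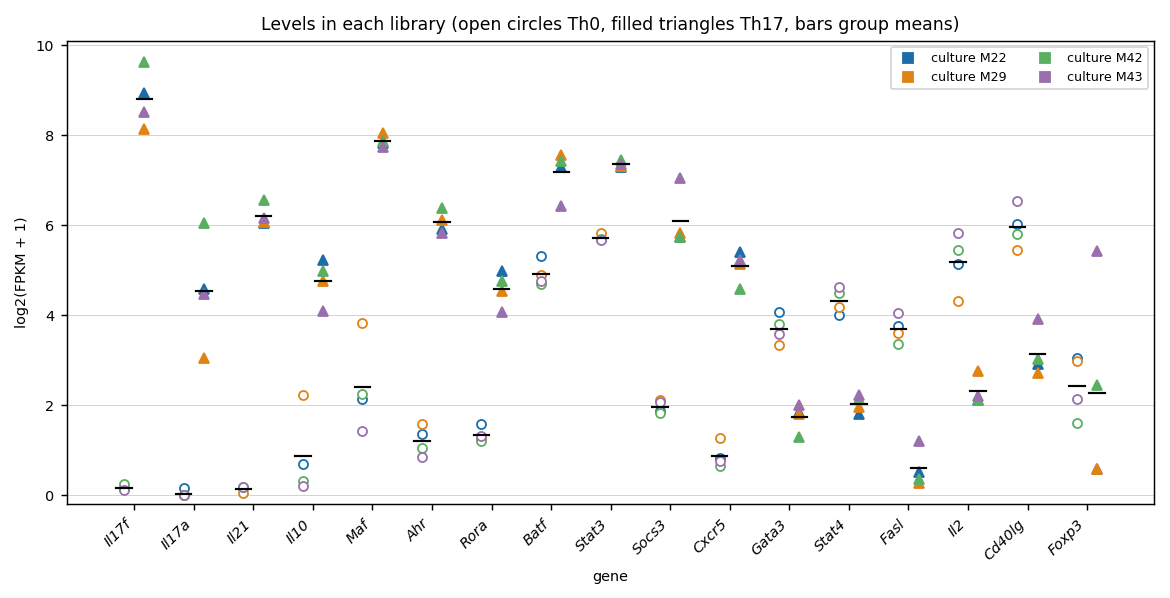
Levels of 17 lineage genes as log2(FPKM + 1) in each library; open circles are Th0, filled triangles Th17, bars the group means and colours the 4 cultures. For 16 genes the 4 triangles stand clear of the 4 circles, and for Foxp3 they overlap, with Th17 values from 0.499 to 42.5 FPKM.

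Of 11 tested Th17 surface receptors 5 rose and 0 fell, against 10.6% and 8.69% of all genes (median log2 fold change 1.34). With the block 8 rose, against 19.2%. Il1r1, the IL1 receptor, was at 0.152 FPKM or less in Th0 and at 21.3, 14.9, 11.3 and 6.55 in Th17 (3.67 ± 0.29, adjusted p = 6.73e-05). Il23r, the receptor for the cytokine that sustains Th17 cells, reached 3.3, 3, 1.6 and 1.65 FPKM from 0.205 or less (1.64 ± 0.19, adjusted p = 0.000415). Cd101, an inhibitory surface protein, rose from 0.653, 1.13, 0.926 and 1.93 FPKM to 16.1, 7.46, 17.7 and 36.9. Ccr6, a homing receptor for CCL20, was at 9.78 FPKM in the M22 Th17 library and at 1.90 to 2.46 in the other Th17 libraries, against 0.257 to 1.29 in Th0. Its adjusted p was 0.0517 unpaired and 0.0435 with the block, and 0.0298 without the M22 Th17 library. Il6st, the shared signal chain of the IL6 family, rose (1.34 ± 0.35, adjusted p = 0.0289) with overlapping groups, and lost the call in 5 of 8 fits without 1 library (up to 0.0777 without the M43 Th0 library), while Il6ra was 17.7 to 51.1 FPKM in Th0 and 11.8 to 32.6 in Th17 (adjusted p = 0.478). Il17ra, the receptor for IL17A itself, went from 37.0, 37.5, 10.7 and 25.6 FPKM to 99.4, 81.7, 31.4 and 127 (adjusted p = 0.0587, with the block 0.00121). Il6st, Il6ra and Il17ra were chosen after their values were seen.

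Genes that report on the added cytokines were called up in most cases. Of 15 tested IL6 and STAT3 response genes 10 rose and 0 fell (median 1.34), against 10.6% and 8.69% of all genes. Socs3, the feedback inhibitor of IL6 receptor signalling, rose from 2.70, 3.32, 2.54 and 3.18 FPKM to 52.5, 55.7, 52.6 and 131 (4.12 ± 0.28, adjusted p = 3.39e-05). Bcl3, an IκB family protein, rose from 4.24 to 8.05 FPKM to between 31.3 and 61.1 (2.70 ± 0.24), and Il4ra from 13.9 to 40.3 to between 64.1 and 151 (2.02 ± 0.35). The window of the Socs3 promoter shown here (RefSeq, GRCm38.p6, chr11:117969492-117969540, strand of the gene) holds TTC and GAA parted by 3 bases, the letters STAT dimers are known to bind, in capitals.
Socs3: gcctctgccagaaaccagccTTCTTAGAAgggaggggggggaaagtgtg
This spaced pair stood in 3 of 15 promoters of the list and in 7.07% of all 7864.

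Of 20 tested TGFβ response genes 11 rose and 1 fell, against 10.6% and 8.69% of all genes (median 1.2). With the block 12 rose and 4 fell, against 19.2% and 18.6%. Pmepa1, a feedback inhibitor that traps SMAD proteins, rose from 5.13, 6.13, 6.01 and 6.31 FPKM to 64.0, 65.9, 58.5 and 53.6 (3.16 ± 0.11, adjusted p = 1.02e-06). Itgae, the αE integrin of mucosal T cells, rose from 1.00 FPKM or less to 20, 13.9, 4.74 and 12.9 (3.08 ± 0.37), and Furin, the protease that processes the TGFβ precursor, from between 16.4 and 24.3 to between 109 and 189 (2.77 ± 0.18). The receptor chain Tgfbr1 rose (2.48 ± 0.25) and its partner Tgfbr2 was at 24.6 to 40.3 and 31.6 to 64.3 FPKM (adjusted p = 0.136, with the block 0.0177). Of the signal proteins Smad3 (1.92 ± 0.12) and the inhibitors Smad7 (1.89 ± 0.22) and Ski (1.39 ± 0.11) rose. Tgfbr2, Smad3 and Ski were chosen after their values were seen. Id3, an inhibitor of E proteins kept high in naïve cells, was the member that fell (-1.75 ± 0.18, adjusted p = 0.000237).

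AHR is a receptor for dietary and environmental compounds. Of its 9 tested targets 7 rose and 1 fell, against 10.6% and 8.69% of all genes (median 1.89). Cyp1b1, an oxidizing enzyme, rose from 0.547, 0.199, 0.0843 and 0.0835 FPKM to 22.4, 17.9, 15.4 and 24.0 (4.09 ± 0.17, adjusted p = 2.28e-06). Its classical companion Cyp1a1 was already at 27.5, 10.0, 3.96 and 6.72 FPKM in Th0, and its Th17 values of 75.2, 122, 23.5 and 53.3 overlapped those (2.50 ± 0.60, adjusted p = 0.0203). Without the M22 Th17, the M29 Th17 or the M43 Th0 library Cyp1a1 was no longer called, with adjusted p up to 0.0605. Tiparp (2.86 ± 0.20) and Ahrr (1.49 ± 0.18; chosen after its values were seen), both of which restrain AHR, rose, and so did Lpxn (2.64 ± 0.28). Nrp1, a receptor for semaphorins and a marker of thymic regulatory T cells, fell from 9.11, 3.40, 9.53 and 25 FPKM to 1.06, 0.789, 0.539 and 2.08 (-2.36 ± 0.47). GCGTG, the core of the AHR site (capitals; its complement is CACGC), stood in 66.7% of the 9 target promoters and in 54.4% of all, so the letters were common in both. The window in Cyp1b1 was chr17:79715113-79715157 (RefSeq, GRCm38.p6, strand of the gene).
Cyp1b1: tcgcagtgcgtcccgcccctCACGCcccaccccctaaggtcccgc

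Lists of other helper lineages held calls in both directions. Of 16 tested follicular helper genes 6 rose and 3 fell, against 10.6% and 8.69% of all genes. Cxcr5, the receptor that leads these cells to B cell follicles, rose from 1.41 FPKM or less to 41.5, 34.1, 23.2 and 36.9 (4.22 ± 0.20, adjusted p = 4.66e-06). Tox2 rose from 0.956, 1.37, 0.387 and 0.256 FPKM to 52.9, 75.4, 55.8 and 24.0 (4.87 ± 0.34) and Bcl6, the repressor that defines the lineage, from between 5.85 and 10.1 to between 14.4 and 43.4 (1.75 ± 0.33). The 3 that fell are surface proteins of the synapse with B cells: Btla (-3.25 ± 0.23), Cd200 (-2.95 ± 0.30) and Slamf6 (-2.88 ± 0.28).

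Among 16 tested Th1 and interferon-γ genes 3 rose and 6 fell (median -0.81), against 10.6% and 8.69% of all genes. Without the M22 Th0, M29 Th17 or M42 Th0 library 2 rose. Nkg7, a granule protein, fell from 58.8, 6.58, 23 and 38.7 FPKM to 0.301, 0.766, 1.12 and 3.28 (-3.58 ± 0.62, adjusted p = 0.00407). Fasl, the death ligand, fell from 9.28 to 15.6 FPKM to 1.32 or less (-3.10 ± 0.23), Gzmb, a killing protease, from 3.44 to 16.0 to 0.173 or less (-3.05 ± 0.40), and Ccl3, a chemokine, fell with overlapping groups (-2.75 ± 0.73, adjusted p = 0.0295; between 0.0600 and 0.0841 in the 5 leave-outs that lost the call). Cxcr3, a Th1 chemokine receptor, rose from 1.67 FPKM or less to 2.21, 4.45, 2.27 and 10.8 (adjusted p = 0.0312; not called in 4 leave-outs, up to 0.0804), and Runx3 rose (1.2 ± 0.18). The lineage factor Tbx21 was at 0.449 to 1.06 FPKM in Th0 and 0.384 to 2.52 in Th17 (adjusted p = 0.218), and at 0.0082 without the M22 Th17 library. Stat4 (chr1:51987148-52107189), the IL12 transducer, fell from 15.0, 17.2, 21.5 and 23.9 FPKM to 2.51, 2.92, 3.44 and 3.69 (-2.29 ± 0.16). In GENCODE (GRCm38) 26.7% of its exonic bases also belong to the model Gm28177, so its reads may not all be assigned with certainty.

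Of 7 tested Th2 genes 3 rose and 1 fell, against 10.6% and 8.69% of all genes. With the block all 7 were called, 4 up and 3 down, against 37.8% of all genes. In 6 of the 8 fits that left out a library 2 rose. The factor Gata3 fell from 15.9, 9.07, 13 and 11 FPKM to 2.63, 2.49, 1.45 and 3.04 (-1.96 ± 0.20, adjusted p = 0.000254), while the raised members were Il10 and Il4ra, described above, and Ccr8. Il4 itself was not listed.

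Of 20 tested regulatory T cell genes 6 rose and 8 fell, against 10.6% and 8.69% of all genes. The medians of the cultures lay farther apart than for any other list described here. Foxp3, the defining factor, was at 7.24, 6.91, 2.04 and 3.41 FPKM in Th0 and at 0.499, 0.502, 4.5 and 42.5 in Th17 (-0.17 ± 0.99, adjusted p = 0.927). It thus lay below Th0 in M22 and M29 and above it in M42 and M43, and other gene models overlap 31.5% of its exonic bases. The median difference of the list was -1.96 in M22, -1.40 in M29, 0.02 in M42 and 1.08 in M43. Socs2 (2.41, 0.731, 12.9 and 54.7 FPKM in Th17; 24.4, 8.59, 12.7 and 14.7 in Th0) and Lrrc32, which presents latent TGFβ and was chosen after its values were seen (0.0642, 0.0272, 0.658 and 5.47; 5.98, 3.10, 0.991 and 1.91), had the same order of cultures. Lrrc32 was not called (adjusted p = 0.317) but was without the M43 Th17 library (0.0391). Other members did not follow Foxp3. Nt5e, the ectoenzyme CD73 that makes adenosine, rose in every culture, from 13.6, 23.4, 18.1 and 24.4 FPKM to 222, 125, 113 and 175 (2.92 ± 0.25), and Ctla4, an inhibitory receptor, from 46.8, 42, 26.2 and 40.3 to 140, 140, 148 and 104 (1.77 ± 0.19). Folr4 (-2.78 ± 0.27), the folate receptor family protein also called Izumo1r, Tnfrsf9 (-2.60 ± 0.27) and Penk (-2.82 ± 0.52) fell without overlap.

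Of 25 tested members of the TNF receptor family and its ligands 6 rose and 10 fell, against 10.6% and 8.69% of all genes. Receptors moved in both directions. Tnfsf11, encoding RANKL, fell from 15.4, 9, 19.5 and 43.9 FPKM to 0.164, 0.418, 0.255 and 0.944 (-3.80 ± 0.40, adjusted p = 0.000299), and Tnfsf8, encoding CD30 ligand, from 110, 55.0, 118 and 133 to 4.90, 6.94, 11.8 and 21.6 (-3.21 ± 0.43). Cd40lg, the ligand that licenses B cells and dendritic cells, fell from 64.1, 42.6, 55.3 and 93.0 FPKM to 6.57, 5.56, 7.21 and 14.1 (-2.81 ± 0.30). Both Tnfsf4, encoding OX40 ligand (-2.75 ± 0.26), and its receptor Tnfrsf4 (-1.26 ± 0.22) fell. All of these ligands had lower values in each Th17 library than in any Th0 library. Tnfrsf25, the receptor DR3, rose from 6.65 to 10.5 FPKM to between 30.1 and 78.9 (2.33 ± 0.26), and Tnfrsf14, the partner of BTLA, from 21.7 to 47.5 to between 73.4 and 137 (1.56 ± 0.27). Tnfsf4, Tnfrsf4 and Tnfrsf14 were chosen after their values were seen.

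Inhibitory receptors and costimulators fell more often than they rose, 8 against 2 of 26 tested, and 15 against 3 with the block (median -0.70). Over all tested genes 8.69% fell and 10.6% rose unpaired, and 18.6% and 19.2% with the block. Cd274, encoding PD-L1, fell from 52.0, 49.2, 47.0 and 54.2 FPKM to 4.75, 4.96, 4.04 and 6.93 (-3.08 ± 0.14, adjusted p = 4.36e-06), Btla from 204, 163, 143 and 180 to 21.1, 20.1, 10.2 and 19.9, and Cd226, an activating receptor, from 8.30 to 21.8 FPKM to 0.641 or less (-3.39 ± 0.26). Those that rose were Ctla4 and Cd101. Lag3, chosen after its values were seen, showed how much the block mattered: it was at 99.8, 136, 23.9 and 41.0 FPKM in Th0 and at 297, 265, 59.7 and 110 in Th17, higher in Th17 in all 4 cultures, with an adjusted p of 0.209 unpaired and 0.000359 with the block.

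Of 31 tested chemokine and homing genes 10 rose and 6 fell, against 10.6% and 8.69% of all genes. Gpr15, a receptor for homing to the colon, rose from 0.395 FPKM or less to 14.7, 5.23, 15.6 and 16.0 (3.54 ± 0.32, adjusted p = 0.00013). Cxcr6 rose from 1.97, 2.56, 2.28 and 2.26 FPKM to 19.1, 15.6, 34.9 and 28.8 (2.91 ± 0.23). The chemokine Ccl1 fell from 4.03 to 19.3 FPKM to 0.660 or less (-2.70 ± 0.42). Xcl1, another chemokine, went from 7.18, 1.78, 12.5 and 46.5 FPKM to 20.5, 22.3, 35.2 and 90.7 (adjusted p = 0.183, with the block 0.00747; 0.0459 without the M43 Th0 library).

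Il2 and its neighbour Il21 moved in opposite directions. Il2 (chr3:37120523-37125959), the T cell growth factor, fell from 34.3, 19.0, 42.7 and 56.3 FPKM to 3.37, 5.82, 3.38 and 3.64 (-2.88 ± 0.31, adjusted p = 0.000299), whereas Il21 (chr3:37222759-37232636) rose as given above. Of 26 tested IL2 and STAT5 response genes 7 rose and 7 fell, against 10.6% and 8.69% of all genes. The receptor chains were among those that rose: Il2ra from 170, 80.7, 114 and 172 FPKM to 228, 218, 277 and 425 (1.10 ± 0.29, adjusted p = 0.0295, up to 0.0743 in the 3 leave-outs that lost the call, the M29 Th0, M42 Th0 and M43 Th17 libraries), and Il2rb from 64.4 to 99.5 FPKM to between 174 and 277 (1.51 ± 0.19). The inhibitor Socs1 also rose (1.72 ± 0.21), while Ccnd2, a G1 cyclin, fell from 178, 197, 250 and 230 FPKM to 65.8, 74.7, 94.8 and 113 (-1.30 ± 0.19).

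Genes that TCR signals induce within the first hours fell more often than they rose, 10 against 4 of 32 tested (median -0.35). With the block the counts were 16 against 6. Over all tested genes 8.69% fell and 10.6% rose unpaired, and 18.6% and 19.2% with the block. Without the M22 Th0, the M29 Th17 or the M43 Th0 library 2 members rose. Egr3 fell from 52.5, 59.0, 80.5 and 62.1 FPKM to 13.6, 15.3, 11 and 17.9 (-2.06 ± 0.17, adjusted p = 0.0001), the nuclear receptor Nr4a3 from 65.0, 31.5, 88.5 and 82.4 to 10.7, 10.8, 10.0 and 23.2 (-2.19 ± 0.36), and Dusp6, which switches off ERK, from 55.3, 108, 161 and 110 to 18.7, 19.8, 53.4 and 30.1 (-1.83 ± 0.39). Cd69, an early activation marker chosen after its values were seen, fell from 58.3 to 84.0 FPKM to between 29 and 50 (-0.93 ± 0.19). Jun, a subunit of AP-1, was the main exception and rose from 8.29, 2.20, 2.58 and 4.67 FPKM to 48.4, 37.4, 53.4 and 44.6 (3.23 ± 0.31), with Klf10, a TGFβ-inducible repressor, from 4.44 or less to between 21.4 and 25.6 (2.45 ± 0.15).

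Of 35 tested NFAT, NF-κB and AP-1 genes 11 rose and 8 fell, against 10.6% and 8.69% of all genes. Fosl2 (1.89 ± 0.21) and Junb (0.72 ± 0.20, adjusted p = 0.035, not called in 5 leave-outs, up to 0.0833 without the M29 Th17 library), AP-1 subunits, and Nfatc2 (1.22 ± 0.12) rose, and all 3 were chosen after their values were seen. Bcl3, given above, rose as well. The NF-κB subunits Rel and Nfkb2 fell, and so did Atf3, of the AP-1 group, and Ppp3ca, a calcineurin subunit that activates NFAT; Rel went from 39.4, 26.4, 36.2 and 39.1 FPKM to 11.2, 9.16, 12.6 and 12.9 (-1.54 ± 0.16, adjusted p = 0.000271) and Nfkb2 from 85.9 to 177 to between 48.7 and 59.1 (-1.32 ± 0.21).

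**Figure D3:**
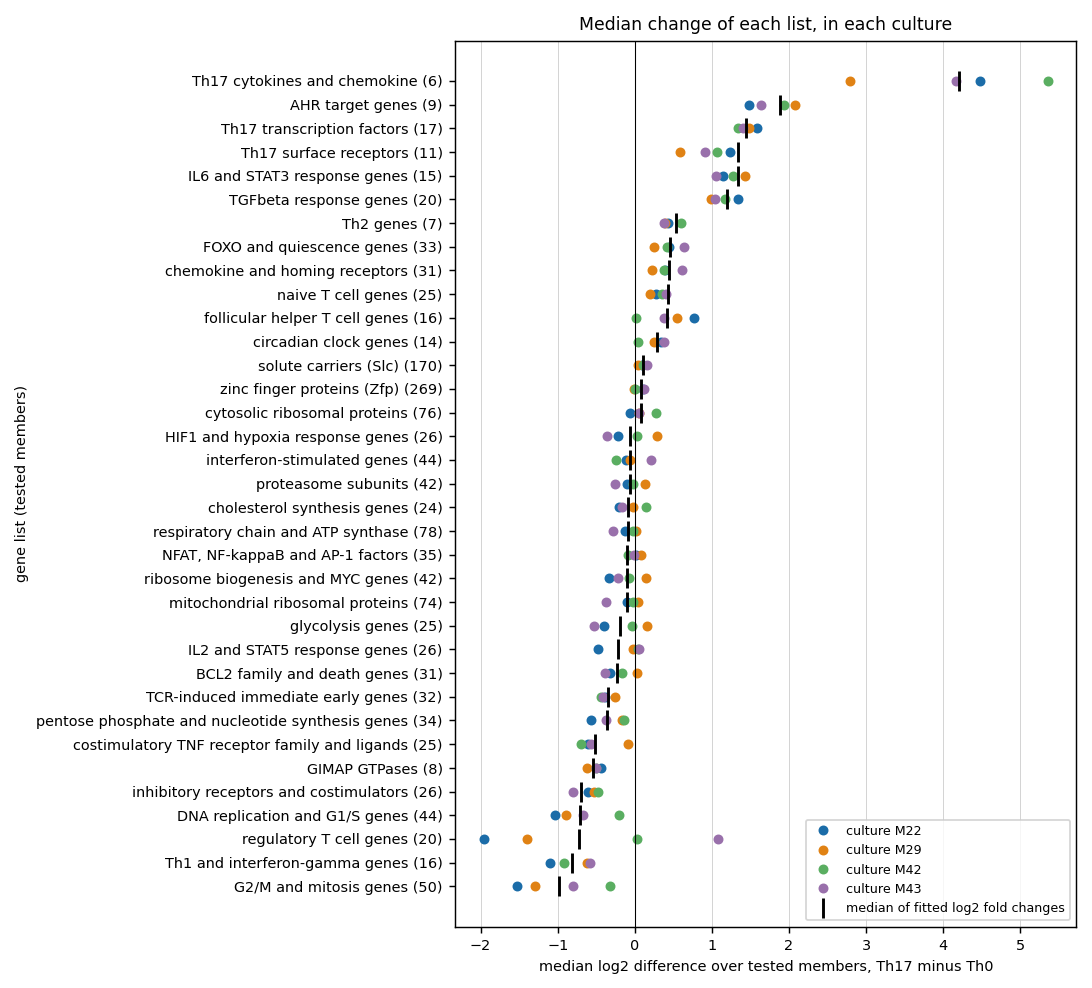
Median log2 difference, Th17 minus Th0, over the tested members of each list (number in brackets); coloured points are the 4 cultures and black bars the medians of fitted log2 fold changes. For the regulatory T cell genes the cultures spread from -1.96 to 1.08.

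FOXO1 is the factor that keeps naïve T cells at rest and circulating, and its gene rose from 21.1, 22.2, 22.9 and 23.5 FPKM to 90.5, 88.3, 77.6 and 89.0 (1.90 ± 0.09, adjusted p = 6.07e-06). Of 33 tested FOXO and quiescence genes 10 rose and 3 fell, against 10.6% and 8.69% of all genes (median 0.45). With the block 18 rose and 6 fell, against 19.2% and 18.6%. Leaving out the M22 Th17, M42 Th0 or M43 Th0 library left 5 that rose, leaving out the M29 Th17 library 6. Il7r, the receptor for the survival cytokine IL7, rose from 6.78, 3.25, 3.44 and 5.00 FPKM to 25.8, 17.6, 37.3 and 42 (2.47 ± 0.29), and Sesn3, chosen after its values were seen, from 45 to 56.5 to between 108 and 123 (1.2 ± 0.10). S1pr1, the exit receptor, was at 7.71, 12.6, 3.25 and 7.04 FPKM in Th0 and 38.4, 47.2, 10.6 and 75.4 in Th17 (2.17 ± 0.56, adjusted p = 0.0275, not called in 6 leave-outs, up to 0.0732 without the M29 Th17 library). Klf2 (28.6, 46.6, 14 and 13.6; 65.8, 77.3, 21.2 and 80.9) had an adjusted p of 0.130 unpaired, 0.0195 with the block and 0.0213 without the M42 Th17 library. Ccr7, the lymph node homing receptor, was at 108 to 342 and 119 to 383 (adjusted p = 0.866). Of 25 naïve T cell genes 6 rose and 4 fell, with 9 that rose without the M42 Th17 library and 4 without any of the M22, M29 Th17, M42 Th0 or M43 libraries, each left out singly. Igfbp4 rose from 32.7, 32.7, 52.4 and 60.8 FPKM to 366, 404, 379 and 1377 (3.59 ± 0.43) and Dapl1 fell from 17.2, 23.8, 43.6 and 30.8 to 1.71, 0.725, 2.59 and 1.36 (-3.50 ± 0.30).

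Of 14 tested circadian clock genes 5 rose and 5 fell, against 10.6% and 8.69% of all genes. Without the M22 Th0, M22 Th17, M29 Th17, M42 Th0 or M43 Th0 library 3 rose. The activators Clock (chosen after its values were seen) and Arntl and the repressor Nr1d2 rose, and Cry2 and Tef fell. The calls of Clock and Cry2 were lost in 7 of 8 leave-outs and that of Arntl in 5. Nr1d1, encoding the repressor REV-ERBα of the clock loop, rose from 0.483, 0.507, 0.586 and 0.542 FPKM to 17.4, 11.4, 5.49 and 5.74 (2.71 ± 0.31, adjusted p = 0.000452), and Nfil3, a repressor of the output arm, from 3.26 to 6.94 to between 11.4 and 14.5 (1.28 ± 0.18). The repressors Per2 (3.04, 2.16, 3.28 and 2.75 FPKM to 0.378, 0.871, 1.15 and 1.18; -1.02 ± 0.17), Per1 (-0.48 ± 0.11; chosen after its values were seen) and Ciart (10.6 to 12.6 FPKM to between 3.78 and 6.13; -1.09 ± 0.15) fell.

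Cell cycle genes gave the largest difference between the unpaired and the blocked test. Of 50 tested G2/M and mitosis genes 0 rose and 2 fell in the unpaired test, against 10.6% and 8.69% of all tested genes. With the block 0 rose and 43 fell, against 19.2% and 18.6%. The same number, 43, were lower in Th17 in all 4 cultures, and members of a list are not independent. The median log2 difference of the 50 genes was -1.53, -1.30, -0.32 and -0.81 in M22, M29, M42 and M43, with a median fitted change of -0.99. Of 44 DNA replication and G1/S genes 1 rose and 12 fell unpaired, and 1 rose and 35 fell with the block (median -0.71). Leaving out the M42 Th17 library raised the unpaired counts that fell to 17 and 34, and leaving out any other library but the M29 Th0 library lowered the G1/S count to between 3 and 5. Mki67, the proliferation marker, was at 68.5, 31.5, 55.1 and 77.9 FPKM in Th0 and at 17.3, 7.53, 39.6 and 48.7 in Th17 (-1.25 ± 0.54, adjusted p = 0.148, with the block 0.0135). Kif11, the motor that separates spindle poles, was at 62.3, 28.1, 72.2 and 62.1 and at 12.1, 5.49, 43.5 and 28.8 (adjusted p = 0.0955, with the block 0.00553). In both genes the groups overlapped: the M29 Th0 library lay within the Th17 range, and the M42 and M43 Th17 libraries lay within the Th0 range. Pcna, the replication clamp, fell from 590, 493, 708 and 585 FPKM to 213, 228, 466 and 283 without overlap (-1.06 ± 0.24, adjusted p = 0.0162). Lig1, a DNA ligase (-1.10 ± 0.25; adjusted p = 0.0172, and 0.0534 without the M22 Th17 library), Smc4, a condensin subunit (-0.77 ± 0.16), and Kif20b (-1.01 ± 0.28, adjusted p = 0.0337; not called in 5 leave-outs, up to 0.0935) fell too, and Cdk6, a G1 kinase, was the member that rose (0.90 ± 0.27, adjusted p = 0.0474), a call lost in 6 leave-outs (up to 0.111 without the M43 Th17 library) and at other pseudocounts. Mki67, Kif11, Pcna and the genes whose promoters follow were chosen after their values were seen.

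**Figure D4:**
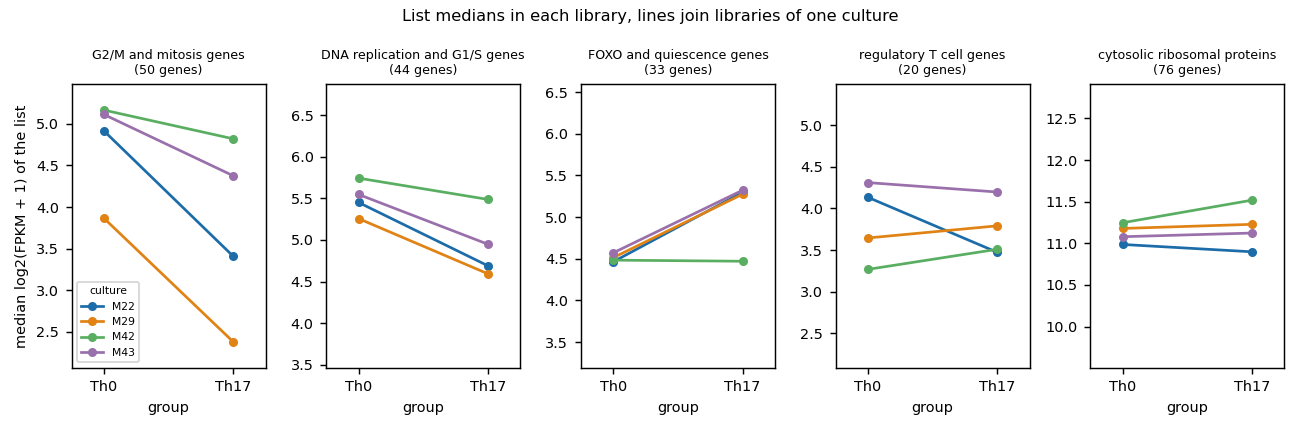
Median log2(FPKM + 1) over the tested members of 5 lists in each library; lines join the Th0 and Th17 library of a culture, and every panel spans the same height on the y axis. All 4 lines fall for the G2/M and the G1/S genes, with M42 falling least; for the ribosomal proteins the line of M22 falls and the other 3 rise, M42 the most, from 11.25 to 11.52.

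Promoters of the mitotic genes are printed because they share letters that the list was not chosen for. TTTGAA (complement TTCAAA) is the core of the cell cycle genes homology region, through which these genes are kept off outside division, and CCAAT (complement ATTGG) is the site of NF-Y. Sequences are from RefSeq (GRCm38.p6) on the strand of the gene, with both motifs in capitals. In Cdca8 the last CCAAT complement shares its first base with the end of TTTGAA, and in that promoter, Kif23 and Kif18b the window runs past the start. The windows are chr19:37376325-37376380 for Kif11, chr9:61946780-61946818 for Kif23, chr7:135716460-135716579 for Mki67, chr4:124936888-124937014 for Cdca8 and chr11:102925104-102925189 for Kif18b.
Kif11: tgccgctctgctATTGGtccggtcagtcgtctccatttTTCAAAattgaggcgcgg
Kif23: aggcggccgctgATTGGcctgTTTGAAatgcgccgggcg
Mki67: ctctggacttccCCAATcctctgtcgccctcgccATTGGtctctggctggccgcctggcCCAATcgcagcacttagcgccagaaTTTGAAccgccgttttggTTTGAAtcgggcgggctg
Cdca8: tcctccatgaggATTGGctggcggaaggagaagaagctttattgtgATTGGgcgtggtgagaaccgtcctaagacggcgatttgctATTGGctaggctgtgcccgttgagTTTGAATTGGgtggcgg
Kif18b: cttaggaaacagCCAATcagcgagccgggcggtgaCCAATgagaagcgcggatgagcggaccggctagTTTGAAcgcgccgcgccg
With 44 of the 50 genes found, TTTGAA on either strand stood in 32 (72.7%), against 14.3% of 35 G1/S promoters, 7.14% of 56 ribosomal protein promoters and 11.6% of all 7864. CCAAT stood in 77.3% against 39.6% of all, and both together in 28 (63.6%) against 5.05%. The 5 printed genes were picked from these 28 for the largest falls, with windows of at most 150 bases. Their falls were thus set by the choice and are given as levels only. All 5 had the lower value in Th17 in every culture, which the choice favoured. Kif23 was at 22.3, 11.3, 22.2 and 21.2 FPKM in Th0 and at 5.76, 2.12, 14.6 and 10.5 in Th17. Cdca8 was at 58.0, 26.8, 67.9 and 63.2 and at 16.8, 10.4, 48.1 and 28.5. Kif18b was at 21.4, 9.16, 28.7 and 25.7 and at 6.98, 2.52, 20.8 and 12.5. Outside the list, 369 tested genes held both motifs, of which 35 (9.49%) fell in the unpaired test and 99 (26.8%) with the block. Of 6943 genes outside the list that lacked TTTGAA, 8.47% and 17.6% fell. The 369 may still hold genes of cell division that are not on the list, and the 6943 were not matched for CCAAT. Any part of the motifs in the falls was not tested.

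Most metabolic and protein synthesis lists had fewer calls in the unpaired test than the background share, 19.3% of all tested genes. With the block that share was 37.8%. Of 25 glycolysis genes 0 rose and 1 fell (1 and 6 with the block; 2 fell without the M29 Th0 and 4 without the M42 Th17 library), the unpaired call being Eno3, an enolase, from 26.1, 19.2, 23 and 23.6 FPKM to 6.42, 5.44, 5.12 and 5.19 (-1.87 ± 0.12, adjusted p = 2.45e-05). Of 78 respiratory chain and ATP synthase genes 0 rose and 1 fell (median -0.09; 4 fell without the M42 Th17 library), of 24 cholesterol synthesis genes 0 and 1 (median -0.09; 3 fell without the M29 Th0 or the M42 Th17 library), and of 76 cytosolic ribosomal proteins 0 and 0 (median 0.07; 1 rose with the block). Ribosome biogenesis genes had 0 calls among 42, and 2 up and 6 down with the block. The pentose phosphate and nucleotide synthesis list followed the cell cycle lists in depending on the design: of 34, 0 rose and 3 fell unpaired (12 fell without the M42 Th17, 5 without the M29 Th0, 2 without the M43 Th17 and 1 without any other library), and 2 rose and 18 fell with the block. Myc, which drives these genes, was at 61.7, 43.1, 77.1 and 75.0 FPKM in Th0 and 48.1, 63.0, 94.3 and 106 in Th17 (adjusted p = 0.597). Of 26 hypoxia response genes 5 rose and 1 fell (23.1% called, against 19.3% of all genes), and 7 rose and 5 fell with the block. Without the M22 Th0 or the M42 Th0 library 2 rose, and 3 rose without the M22 Th17, M29 Th0, M42 Th17 or M43 Th17 library; 2 fell without the M29 Th0 or M42 Th0 and 3 without the M42 Th17 library. The largest rise of those named was that of Egln3, an oxygen-sensing hydroxylase, from 13.5, 6.47, 20.5 and 19.6 FPKM to 61.9, 47.1, 68.7 and 69.4 (2.07 ± 0.32, adjusted p = 0.00233). Vim, encoding vimentin, was at 198, 76.8, 262 and 299 FPKM in Th0 and 131, 61.9, 333 and 718 in Th17 (adjusted p = 0.896), lower in M22 and M29 and higher in M42 and M43.

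Of 42 tested proteasome subunits 0 rose and 4 fell, both unpaired and with the block, a lowered share of 9.52% against 8.69% of all tested genes unpaired and 18.6% with the block. The 4 were the inducible catalytic subunits Psmb8 (132, 111, 125 and 140 FPKM to 48.1, 46.2, 51.8 and 69.7; -1.23 ± 0.15) and Psmb9 (-0.87 ± 0.16) and the activator subunits Psme1 (263, 234, 274 and 279 to 165, 170, 155 and 153; -0.70 ± 0.10) and Psme2 (-0.63 ± 0.15, adjusted p = 0.0189, not called in 4 leave-outs, up to 0.0596 without the M43 Th0 library).

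Interferon-stimulated genes moved both ways, 10 up and 14 down of 44 tested, against 10.6% and 8.69% of all genes. Without the M22 Th17 or the M43 Th17 library 6 rose. Ly6a, a surface protein of activated lymphocytes, rose from 3.33, 7.24, 4.10 and 7.05 FPKM to 83.3, 97.2, 76.4 and 167 (4.04 ± 0.29, adjusted p = 4.86e-05), and Irf9, a partner of the STAT proteins, rose (0.87 ± 0.17). Ifih1, the RNA sensor MDA5, fell from 7.45, 6.30, 10.8 and 9.68 FPKM to 0.200, 0.357, 0.289 and 0.664 (-2.78 ± 0.17), and Gbp4, an interferon-inducible GTPase, from 17.7 to 25 to between 3.24 and 7 (-1.83 ± 0.20). The GIMAP GTPases, lymphocyte survival proteins encoded side by side, had 0 up and 4 down of 8 (median -0.54). Gimap7 fell from 9.23 to 12.2 FPKM to between 2.80 and 5.89 (-1.23 ± 0.20), while Gimap4, chosen after its values were seen, was at 183 to 242 in Th0 and 206 to 268 in Th17 (adjusted p = 0.239).

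The list of BCL2 family and death genes, which holds protective and killing members, had 7 falls and 2 rises among 31 tested. With the block 12 fell and 4 rose. Of all tested genes 8.69% fell unpaired and 18.6% with the block. In the unpaired test 3 members rose without the M29 Th0 library and 1 without any other library except the M42 Th17 library. Casp4, an inflammatory caspase, fell from 8.54 to 24.3 to between 2.75 and 4.62 (-2.06 ± 0.30). The protective Bcl2 and the killer Bcl2l11, encoding BIM, fell together: Bcl2 from 27.8, 25.9, 27.9 and 24.7 FPKM to 5.95, 8.06, 7.96 and 20.5 (-1.39 ± 0.31) and Bcl2l11 from 13.6, 10.9, 12.9 and 14.9 to 5.29, 4.67, 4.09 and 9.80 (-1.07 ± 0.23), the M43 Th17 library having the highest Th17 value of both.

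**Figure D5:**
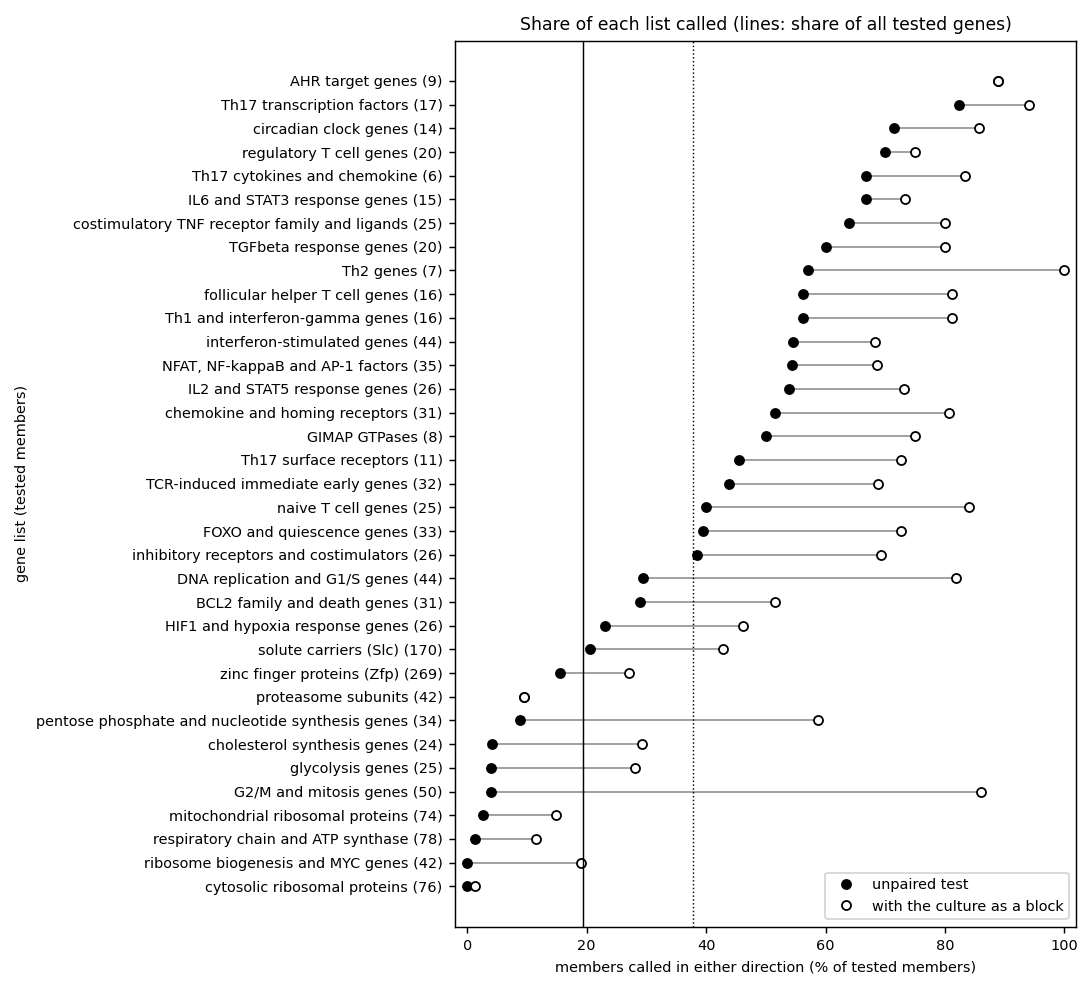
Share of the tested members of each list (number in brackets) called in either direction, unpaired (filled) and with the culture as a block (open); the solid line marks 19.3% and the dotted line 37.8% of all tested genes. Most lineage lists lie right of the lines, the ribosomal proteins and the respiratory chain left, and the G2/M genes move from 4% to 86.0%.

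Of 170 solute carriers 26 rose and 9 fell (20.6% called, against 19.3% of all tested genes). With the M22 Th0, M22 Th17, M29 Th0, M29 Th17 or M43 Th17 library left out, 5 to 6 fell. With the block 51 rose and 22 fell (42.9% called, against 37.8% of all tested genes). Of 269 Zfp zinc finger genes 25 rose and 17 fell (15.6%), with 12 or 13 that rose without the M22 Th0, M22 Th17, M29 Th17 or M43 Th0 library and 16 without the M42 Th0 library. With the block 45 Zfp genes rose and 28 fell (27.1%, against 37.8% of all genes). Slc16a10, a transporter of aromatic amino acids, rose from 4.26, 7.32, 4.35 and 4.72 FPKM to 25.3, 24.0, 21.9 and 24.6 (2.04 ± 0.16), and Cyp11a1, the enzyme that begins steroid synthesis from cholesterol, from 2.48, 1.08, 0.548 and 1.51 to 6.77, 3.98, 20.8 and 27.5 (2.44 ± 0.54).

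Of the 1983 called genes 1700 (85.7%) belonged to none of the 52 written lists, against 88.4% of all tested genes. Of the genes with the largest rises, Aqp3, a channel for water and glycerol, went from 2.65, 2.17, 0.981 and 1.46 FPKM to 207, 118, 70.7 and 136 (5.51 ± 0.32, adjusted p = 1.34e-05). Pltp, a phospholipid transfer protein, went from 0.148 FPKM or less to 43.6, 49.8, 34.0 and 19.1 (5.08 ± 0.26), Olfm2 from 0.175 or less to 53.0, 28.9, 21.9 and 20.9 (4.75 ± 0.26), and Serpinb1a, a protease inhibitor, from 0.332 or less to 19.6, 11.1, 37.8 and 51.9 (4.54 ± 0.40). Cd24a, a surface glycoprotein, rose from 1.05 to 4.93 FPKM to between 39.9 and 92.9 (4.53 ± 0.37). Of those with the largest falls, Nrn1, a membrane-anchored neuritin, went from 184, 52.3, 277 and 422 FPKM to 2.12, 1.15, 4.36 and 4.73 (-5.61 ± 0.61, adjusted p = 0.000327) and Ifitm2, an antiviral membrane protein of which 40.9% of exonic bases are shared with another model, from 62.2, 41.0, 72.2 and 90.5 to 1.17, 0.331, 2.55 and 0.709 (-4.99 ± 0.33). Nrgn, a calmodulin-binding protein, went from 84.9, 46.1, 23.1 and 25.3 FPKM to 1.23, 0.161, 0.0882 and 0.172 (-4.89 ± 0.41), and Igfbp7, a secreted binding protein, from 52.3, 10.4, 22.9 and 49.8 to 0, 0.685, 0.0940 and 1.47 (-4.33 ± 0.51). All of these were picked from called genes whose groups did not overlap, a trait of 23.8% of all tested genes.

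Among the called genes with the smallest adjusted p, Spsb1, an adaptor of ubiquitin ligases, went from 2.19, 1.38, 1.84 and 2.31 FPKM to 38.6, 35.0, 34.7 and 41.0 (3.72 ± 0.13, adjusted p = 1.02e-06), and Pdlim5, a scaffold of the cytoskeleton, from 7.74, 8.32, 8.54 and 8.55 to 73.5, 58.9, 60.9 and 64.8 (2.81 ± 0.10, adjusted p = 1.28e-06). Abi3, of which 75.8% of exonic bases are shared with other models, went from 0.815 to 1.47 FPKM to between 21.5 and 30.7, and Art2a-ps, an ADP-ribosyltransferase pseudogene, was listed at 0 in every Th0 library and at 6.24, 6.94, 6.08 and 6.01 in Th17. Among genes that fell, Litaf went from 35.4, 33.1, 38.1 and 31.4 FPKM to 6.74, 7.89, 6.88 and 6.55 (-2.15 ± 0.10), Synpo, an actin-associated protein, from between 10.2 and 13 FPKM (-2.70 ± 0.14), and Slco4a1, a transporter of organic anions, from 7.35 to 9.92 to 0.813 or less (-2.53 ± 0.14).

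Some genes differed widely between cultures of 1 group, and those named here were among the 10 with the widest range. Asic3, an acid-sensing channel, was at 61.7, 18.5, 5.81 and 1.26 FPKM in Th17 and at 0.590 or less in Th0 (3.08 ± 0.85, adjusted p = 0.0356, not called in 5 leave-outs), without overlap. Mt1, a metallothionein, was at 0.904, 2.11, 36.4 and 4.92 FPKM in Th17 and 4.70 to 12.3 in Th0, and Eno1b was at 27.5 and 51.6 FPKM in the M22 and M29 Th0 libraries and at 14.2 and 58.9 in their Th17 libraries, against 2.34 to 3.07 in both groups of M42 and M43.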

How the data were processed

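RNA-seq was done on bulk RNA of 4 Th0 and 4 Th17 cultures (paired-end, 100 nt). The authors aligned reads to mm10 with TopHat 2.0.14, counted them over exons without strand with HTSeq and removed genes of low count before their own test with edgeR. The deposited values are FPKM per gene; their calculation and the annotation are not given in the sources used here. Total counts are not in the table, so no counting interval was given. The table also holds fold changes, p-values and FDR values of the authors, which were not used.

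Genes above 1 FPKM in at least 4 of the 8 libraries were kept. Group means of log2(FPKM + 1) were compared with limma 3.58.1 (R 4.3.3), unpaired, with Benjamini-Hochberg adjustment over all 10269 genes and a threshold of 0.05. All fold changes were taken after adding 1 FPKM, so at low levels they are smaller than ratios of FPKM would be. Errors are standard errors, with n = 4 per group. Nothing states that libraries came from separate animals, so p-values measure the spread between these cultures. On simulated data with 200 changed genes among 10269, 74% of 2-fold and 96% of 4-fold changes were recovered and 6.59% of calls were false. The simulated errors were independent, without differences shared by libraries of a culture. Changed genes were drawn only from those with a mean log2(FPKM + 1) above 1 in Th0. The rates therefore need not hold for the real libraries.

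Library headings gave the condition and a beginning shared by 1 library of each group. They did not give the experiment number of the sample labels, so the main test here was left unpaired. Deviations from the group means correlated at 0.450 to 0.784 between the 4 pairs of libraries with the same beginning and at -0.590 to 0.434 between the 12 other pairs, so the beginning was taken as pairing the libraries and used as a block in the alternative test. Other alternatives were pseudocounts of 0.1 and 0.5, no filter, a filter in all 8 libraries, limma-trend, array weights, median-of-ratios and quantile scaling, a threshold of 0.01, and leaving out each library.

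Genes were named by rule: the 12 raised and 12 lowered called genes of largest fold whose groups did not overlap, the 10 called in each direction with the smallest adjusted p, up to 4 called members of largest fold in each direction of each list (its 2 members of highest mean FPKM where none was called), lineage-defining members whether called or not, and the 10 genes that differed most between libraries of 1 group. Those outside the rule are said to be chosen after their values were seen. The gene lists and the comparison were chosen with earlier results of these data known. Promoter sequences are from RefSeq (GRCm38.p6) and positions and exon overlaps from GENCODE (GRCm38). Overlaps are of annotated exons, and reads there cannot be assigned by strand.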

Additional observations from a re-analysis of the deposited data

Results flagged for a closer look

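In 38 of 412 groups of 4 libraries checked, the lowest or highest library stood far from the other 3 for the spread of the group. Chance alone would give about 1 in 20 such groups if values were normally distributed, which FPKM need not be, and the genes are not independent. Values are in FPKM, with the range of the other 3 libraries after each.

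In the M42 Th17 library Btla was at 10.2 (19.9 to 21.1), Foxo1 at 77.6 (88.3 to 90.5), Il2rb at 174 (256 to 277), Irf9 at 17.2 (25.4 to 26.9), Klf2 at 21.2 (65.8 to 80.9) and Slamf6 at 5.37 (11 to 12.6), all low, and Lpxn at 267 (165 to 178), high. The medians of log2(FPKM + 1) in that library were low for AHR targets, at 4.62 (4.96 to 5.01), naïve T cell genes, at 4.47 (5.59 to 5.74), FOXO and quiescence genes, at 4.47 (5.28 to 5.32), and solute carriers, at 2.95 (3.46 to 3.54). In the M42 Th0 library Cd69 was low at 58.3 (81.4 to 84.0), Cd74 at 11.4 (23.2 to 25.1), Cd8b1 at 2.52 (5.67 to 6.60) and Tgfbr1 at 7.12 (11.1 to 12).

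In the M43 Th17 library Ctla4 was low at 104 (140 to 148) and Gimap4 at 206 (261 to 268), while Igfbp4 was high at 1377 (366 to 404), Nr4a3 at 23.2 (10.0 to 10.8) and Socs3 at 131 (52.5 to 55.7). The median of glycolysis genes there was high, at 5.16 (4.84 to 4.87).

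In the M22 Th17 library Ccr6 was high at 9.78 (1.90 to 2.46), Klf10 at 25.6 (21.4 to 21.7), Nfkb2 at 59.1 (48.7 to 49.8) and Nrgn at 1.23 (0.0882 to 0.172), and Tbx21 was low at 0.384 (2.03 to 2.52). The Y chromosome gene Eif2s3y was low in both M22 libraries, at 0.484 in Th17 (44.0 to 67.3) and 0 in Th0 (42.5 to 58.0). Il17a was at 0.114 in the M22 Th0 library and listed at 0 in the other Th0 libraries.

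In the M29 Th0 library Kif11 was low at 28.1 (62.1 to 72.2), Kif20b at 9.71 (15.3 to 15.7), Kif23 at 11.3 (21.2 to 22.3) and Il21 at 0.0401 (0.126 to 0.136), and Stat3 was high at 56.2 (50.5 to 51.3). Mid1 was high in both M29 libraries, at 39.9 in Th0 (1.00 to 1.38) and 30.9 in Th17 (1.17 to 1.63). In the M29 Th17 library Gpr15 was low at 5.23 (14.7 to 16.0) and Il2 high at 5.82 (3.37 to 3.64).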

How the results depend on the processing

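With the replicate block 3882 genes were called, 1970 up and 1912 down, and no named gene lost its call. Array weights gave 3144 calls, 1566 of them down, and a threshold of 0.01 gave 995, 574 up and 421 down. Leaving out 1 library gave 1364 to 2237 calls, 770 to 1121 up and 594 to 1116 down, the lowest total without the M22 Th17 and the highest without the M42 Th17 library. With the block, leaving out a pair gave 2578 to 3585 calls, 1335 to 1896 up and 1243 to 1689 down (1476 without M42, 1447 without M43). Other pseudocounts, filters, limma-trend and scalings gave 1575 to 2157. Of the named genes 4 changed direction, none of them called: Ccr7 (-0.24 to 0.53 on leaving out a library, below 0 in 2 fits: -0.24 and -0.04), Foxp3 (-1.23 to 0.39 on leaving out a library, and -1.33 to 0.59 with the block and a pair left out, above 0 without M22 at 0.59 and without M29 at 0.57), Myc (-0.017 with array weights) and Vim (-0.54 with array weights, -0.41 to 0.76 on leaving out a library, and -0.19 with the block and the M43 pair left out). The cause was not tested. FPKM without counts give no depth per gene, so low levels carry an unknown counting error.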
